A study of Mus musculus with 12 samples.

Results

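The genes described here make, carry, sense or destroy retinoic acid, the vitamin A derivative that switches on developmental genes. They are 9 genes chosen by name: the synthetic enzyme gene Aldh1a2, the retinal reductase gene Dhrs3, the vitamin A uptake gene Stra6, the binding protein genes Crabp1 and Crabp2, the breakdown enzyme gene Cyp26a1, and the receptor genes Rara, Rarb and Rarg. Among the 19938 mouse genes that have a probe set of their own in the deposited values, these 9 are read by 1 probe set each, and all 9 passed the filter on dim genes, which left 15950 genes to test. The probe sets are 10586865 (Aldh1a2), 10510129 (Dhrs3), 10585803 (Stra6), 10585438 (Crabp1), 10493108 (Crabp2), 10462853 (Cyp26a1), 10381082 (Rara), 10417713 (Rarb) and 10432972 (Rarg).

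RNA came from 12 samples of mouse embryoid bodies, floating aggregates in which embryonic stem cells differentiate. All were made from A2lox cells of the 129P2/OlaHsd background, which carry a transgene driven by doxycycline (dox), and were hybridised to 1 Affymetrix array each. The knockdown line makes microRNAs against Geminin (gene Gmnn) when given dox. It was collected on day 4, with 3 arrays without dox and 3 with dox at 0.5 µg/ml from day 0. In the Geminin overexpression line dox turns on Geminin, a nuclear protein that restrains replication licensing. It was given at 0.5 µg/ml from day 3. That line was collected on day 5 (replicates 1 and 2) or on day 4 (replicate 3), with a dox array and a control array for each replicate. Day therefore cannot be told apart from replicate 3 in that line. The labels do not say whether each line is 1 clone. They also do not say that replicates were cultured separately, so a p-value here compares a difference only with the scatter of these arrays, part of which may be technical.

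Retinoic acid is made from vitamin A in successive oxidations, of which the last, from retinal to retinoic acid, is run in the early embryo mainly by Aldh1a2 in mesoderm. Cyp26 enzymes destroy it, and in the gastrulating embryo Cyp26a1 is known from the primitive streak and the tissue leaving it. Inside cells, Crabp proteins bind retinoic acid, and the receptors Rara, Rarb and Rarg, paired with Rxr partners, sit on response elements near target genes. Cyp26a1 and Rarb are themselves classical direct targets.

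The start regions of Cyp26a1 and Rarb are shown because a retinoic acid response element is known there. RefSeq windows of 300 bases (250 before and 50 from the start site on, build GRCm38.p6) were found for 8 of the 9 genes, 17 windows in all, and Crabp2 was not searched. They were searched on both strands for direct repeats of hexamers that read AGGTCA, or else AGTTCA, or else GGGTCA, or else GGTTCA. With a spacer of 5 bases, the arrangement known as DR5, such a repeat lay in 2 of the 17 windows, those of Cyp26a1 and Rarb, and in 32 of all 32851 windows (0.0974%). With spacers of 1 or 2 bases it lay in 0 of the 17, against 0.222% and 0.268% of all windows. The repeats are printed below on the strand where the hexamers read as listed, with hexamers in capitals. The Rarb repeat spans bases 53 to 37 before the start on the strand of the gene, and that of Cyp26a1 bases 32 to 16 before the start on the opposite strand.
Rarb repeat: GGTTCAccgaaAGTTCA
Cyp26a1 repeat: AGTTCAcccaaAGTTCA

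The whole windows, in the direction of the gene and with the same hexamers in capitals, were chr19:37697558-37697857 on the plus strand for Cyp26a1, chr14:16575427-16575726 on the minus strand for Rarb, and chr9:71215539-71215838 on the plus strand for Aldh1a2. The last is printed as the counterpart on the side of synthesis, and none of the 3 kinds of repeat was found in it. A match is only a match of letters, and no binding was measured here.
Cyp26a1: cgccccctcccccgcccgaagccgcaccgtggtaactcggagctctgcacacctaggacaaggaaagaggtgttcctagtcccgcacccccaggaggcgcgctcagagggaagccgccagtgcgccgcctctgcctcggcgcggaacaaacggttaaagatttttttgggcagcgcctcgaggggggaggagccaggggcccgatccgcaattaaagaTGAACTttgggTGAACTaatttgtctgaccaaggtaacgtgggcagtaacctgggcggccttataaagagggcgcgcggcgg
Rarb: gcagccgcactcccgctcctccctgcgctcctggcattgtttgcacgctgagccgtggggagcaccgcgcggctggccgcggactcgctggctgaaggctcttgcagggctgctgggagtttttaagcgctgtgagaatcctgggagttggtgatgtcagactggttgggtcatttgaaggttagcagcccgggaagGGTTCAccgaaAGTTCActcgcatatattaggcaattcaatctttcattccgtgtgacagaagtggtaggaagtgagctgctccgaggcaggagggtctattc
Aldh1a2: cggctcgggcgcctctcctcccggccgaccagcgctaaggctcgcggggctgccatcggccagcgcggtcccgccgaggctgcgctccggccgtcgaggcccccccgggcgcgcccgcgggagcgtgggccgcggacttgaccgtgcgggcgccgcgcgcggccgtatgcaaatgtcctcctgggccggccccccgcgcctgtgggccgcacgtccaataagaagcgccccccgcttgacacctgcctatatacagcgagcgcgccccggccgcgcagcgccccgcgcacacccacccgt

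Values are log2(intensity + 1) after quantile normalization, and each is a level of 1 gene on 1 array. Levels are compared between arrays and never between genes, because probe sets differ in brightness. Gmnn was lower on all 3 dox arrays of the knockdown line (9.63 to 9.74) than on its 3 controls (10.05 to 10.33), and higher on all 3 dox arrays of the overexpression line (10.83 to 11.38) than on its 3 controls (10.15 to 10.35), as the labels state. Even so, Gmnn was not called for dox in the knockdown line (-0.50 ± 0.14 SE, limma adjusted p = 0.965). The same held in the overexpression line (0.82 ± 0.14 SE, limma adjusted p = 0.922). A gene not called for dox here is therefore not shown to be unchanged. Pou5f1, which marks pluripotent cells, lay between 11.96 and 12.77 on all 12 arrays, and Mixl1, which marks the primitive streak, between 7.03 and 11.94. Feeder fibroblasts, on which the stem cells had been kept and which were subtracted before aggregation per the labels' protocols, were followed by 10 marker genes. The sum of their intensities was 1477 to 1900 in the knockdown line, 1694 to 1798 on day 4 and 1916 to 2252 on day 5 of the overexpression line. No marker is listed at 0.

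Aldh1a2 was the gene of this group that differed most by day. In the knockdown line on day 4 its levels were 6.52, 6.24 and 6.15 without dox and 6.88, 6.43 and 6.81 with dox (replicates 1, 2 and 3). The overexpression line had 7.22 without and 7.04 with dox on day 4, and 8.47 and 9.01 without and 8.22 and 8.92 with dox on day 5 (replicates 1 and 2). All 4 day 5 arrays lay above both day 4 arrays of the same line, which in turn lay above all 6 arrays of the knockdown line. The mean without dox in the knockdown line, 6.30 ± 0.19 (SD, n = 3), fell below the filter value of 6.455, so Aldh1a2 was near the dim end there and passed the filter through its other arrays.

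**Figure D1:**
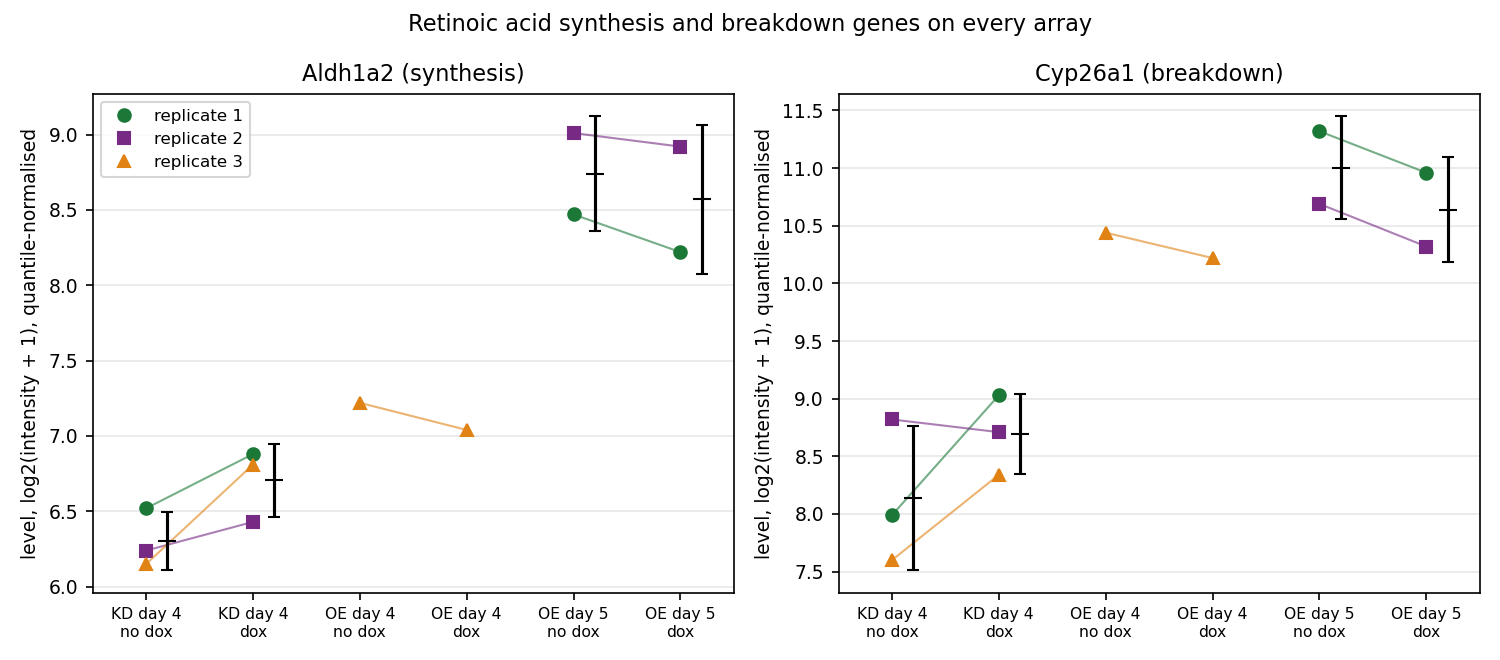
Levels of Aldh1a2 (left) and Cyp26a1 (right) on each of the 12 arrays, as log2(intensity + 1) after quantile normalization, by line (KD, knockdown; OE, overexpression), day and dox. Symbols and colours give the replicate number, lines join arrays of equal number, and black bars are the mean ± SD of groups with over 1 array. Aldh1a2 is highest on day 5 (8.22 to 9.01), and Cyp26a1 is above 10 on every array of the overexpression line.

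In the overexpression line Aldh1a2 was higher on day 5 than on day 4 by 1.52 ± 0.22 (SE) on the log2 scale, 2.88-fold (limma adjusted p = 0.0233). It was the only 1 of the 9 genes called in that comparison, in which 89 of 15950 genes were called (0.558%). Day 4 is replicate 3 alone there, so day and replicate cannot be told apart. The call had an adjusted p of 0.0846 with the arrays of that line alone. It was also lost without any 1 of 6 arrays, although the difference stayed between 1.37 and 1.67. These were day 5 control replicates 1 (1.64, adjusted p = 0.0521) and 2 (1.41, 0.0562), day 5 dox replicate 2 (1.37, 0.0546), day 4 control (1.53, 0.610), day 4 dox (1.52, 0.422) and knockdown dox replicate 3 (1.52, 0.0507). Markers of several cell types differed between the same days. The 7 lateral mesoderm and haemangioblast markers summed to 3031 and 3210 on day 4 and to between 3158 and 5774 on day 5, and the 11 nascent and paraxial mesoderm markers to 3210 and 3426 against 3760 to 4232. The lateral sums of the days overlapped and the paraxial sums did not, and Foxc1 was called (1 of 11). The 13 primitive and visceral endoderm markers summed to 3859 and 4193 on day 4 and to between 6064 and 7089 on day 5. Of 12 tested 10 were higher (median 0.60) and 0 were called by limma. At an unadjusted p under 0.05 there were 2, where 14.2% of all genes had one. Of 5 epiblast markers 0 were higher on day 5, with Dnmt3b called lower, and of 8 pluripotency markers 4 were higher, with Pou5f1 called lower. Their part in the Aldh1a2 difference was not tested. In bulk samples, more cells of a type and more RNA per cell cannot be told apart.

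On the 2 day 4 arrays of the overexpression line Aldh1a2 also stood above the knockdown line. The fitted knockdown minus overexpression difference on day 4, here and below, compares fitted levels without dox. For Aldh1a2 it was -0.92 ± 0.25 (SE) and was not called (limma adjusted p = 0.192). Ordered by group mean, the levels of Aldh1a2 ran from knockdown without dox (6.30 ± 0.19) to knockdown with dox (6.70 ± 0.24 SD, n = 3), overexpression day 4 with and without dox (7.04 and 7.22, 1 array each), and overexpression day 5 with dox (8.57 ± 0.49) and without (8.74 ± 0.38 SD, n = 2). The arrays of the first 2 groups overlapped, as did those of the last 2.

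Dhrs3 reduces retinal back to retinol and so acts against synthesis. Its levels in the knockdown line were 8.28, 7.06 and 7.74 without dox and 8.48, 7.35 and 8.29 with dox. The overexpression line had 7.74 and 8.01 on day 4, without and with dox, and 7.36 and 7.49 without and 7.37 and 7.43 with dox on day 5. The replicate number thus went with a wider range in the knockdown line than dox did. There the means of the equal-numbered arrays were 8.38, 7.20 and 8.02. All 4 day 5 arrays lay below both day 4 arrays, the reverse of Aldh1a2, with a fitted difference of -0.47 ± 0.34 (SE; limma adjusted p = 0.597). Groups that do not overlap between these days were found for 3 of the 9 genes (Aldh1a2, Crabp1 and Dhrs3) and for 30.5% of all tested genes.

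Stra6, the membrane receptor that takes vitamin A from its blood carrier, was steadier. Its level ran from 8.52 to 9.16 over the 12 arrays with a median of 8.85, a span of 0.64 against a median span of 0.59 among all tested genes. None of its 5 fitted differences was called (limma adjusted p from 0.888 to 1.00).

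Crabp1 and Crabp2 bind retinoic acid in the cytoplasm. Crabp2 is known for handing it to the receptors, and Crabp1 for keeping it from them. Crabp1 stayed between 8.28 and 8.92 on all 8 day 4 arrays of both lines. On day 5 it stood at 9.27 and 10.49 without dox and at 9.50 and 10.70 with dox (replicates 1 and 2). All 4 day 5 arrays were therefore above every day 4 array, and replicate 2 was 1.21 above replicate 1. The fitted difference between the days was 1.23 ± 0.37 (SE), 2.34-fold, with an unadjusted p of 0.00714, and was not called (limma adjusted p = 0.163). With array weights it was called at 1.38 (limma adjusted p = 0.00488), a setting that called 2567 of 15950 genes by day, against 89 in the main fit. The sums of the feeder markers, given above, were also highest on day 5. Of 7 tested in that comparison 5 were higher and 0 were called by limma. At an unadjusted p under 0.05 there were 2, where 14.2% of all genes had one. The part of the feeder markers in the Crabp1 levels was not tested. Crabp2 lay between 8.27 and 9.23 on all arrays and was higher on day 5 by 0.30 ± 0.20 (SE; limma adjusted p = 0.544).

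Cyp26a1 had the widest range of the 9 genes. The knockdown line had 7.99, 8.82 and 7.60 without dox and 9.03, 8.71 and 8.34 with dox. In the overexpression line it stood at 10.44 without and 10.22 with dox on day 4, and at 11.32 and 10.69 without and 10.96 and 10.32 with dox on day 5. Every array of the overexpression line lay above every array of the knockdown line (lowest 10.22 against highest 9.03). The span of 3.72 from 7.60 to 11.32 was wider than that of 99.9% of tested genes, and that of Aldh1a2, 2.86, was wider than 99.6%.

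On day 4 without dox, Cyp26a1 was 5.09-fold lower in the knockdown line, at -2.35 ± 0.38 (SE) on the log2 scale (limma adjusted p = 0.0433). With dox the lines lay closer, with a mean of 8.70 in the knockdown line against 10.22 (1 array) in the overexpression line. Cyp26a1 was again the only 1 of the 9 genes called, where 49 of all 15950 were called (0.307%). Groups of arrays of the 2 lines on day 4 did not overlap for 2 of the 9 genes, Aldh1a2 and Cyp26a1, and for 16.5% of all tested genes. The baseline of the overexpression line on day 4 rests on 1 pair of arrays, and the lines differ in their transgene, so the line and that replicate cannot be told apart. The call was lost with no filter on dim genes (adjusted p = 0.0579) and without any 1 of 8 arrays. These were day 4 control (-2.45, 0.897), day 4 dox (-2.30, 0.254), day 5 control replicate 1 (-2.25, 0.0745) and day 5 dox replicate 2 (-2.25, 0.0682) of the overexpression line. In the knockdown line they were control replicates 1 (-2.27, 0.126) and 3 (-2.08, 0.0513) and dox replicates 1 (-2.35, 0.0517) and 3 (-2.35, 0.0547).

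Primitive streak markers differed between the lines on day 4 as well. Their summed intensity over 6 measured of 7 listed genes was 1129 to 6576 in the knockdown line and 9729 and 11078 on day 4 of the overexpression line. On day 5 it was 5537 to 9758, so that replicate 2 of that day (5593 and 5537) lay below the highest array of the knockdown line, and 0 of the 6 markers were higher on day 5 than on day 4. All 6 were lower in the knockdown line on day 4, with 1 called by limma (Evx1) and 6 at an unadjusted p under 0.05, where 11.6% of all genes had one. Of the 11 nascent and paraxial mesoderm markers 4 were higher and 7 lower in the knockdown line, with Mesp1, Msgn1 and Tbx6 called lower. Of the 7 lateral mesoderm and haemangioblast markers 1 was higher and 6 were lower, with Kdr called lower. Of 12 endoderm markers 9 were higher, with 0 called by limma and 2 at an unadjusted p under 0.05. Of 8 pluripotency markers 6 were higher (median 0.75), with 0 called and 3 at an unadjusted p under 0.05. Of 5 epiblast markers 1 was higher, with 0 called and 0 at an unadjusted p under 0.05. Their part in the Cyp26a1 difference was not tested. Between day 4 and day 5 of the overexpression line Cyp26a1 was higher by 0.49 ± 0.33 (SE; limma adjusted p = 0.553), so only the synthetic enzyme gene was called there. In group order Cyp26a1 ran as Aldh1a2 did: knockdown without dox (8.14 ± 0.62) and with dox (8.70 ± 0.35 SD, n = 3), overexpression day 4 with and without dox (10.22 and 10.44), and day 5 with dox (10.64 ± 0.45) and without (11.01 ± 0.45 SD, n = 2). Neighbours within the knockdown line overlapped, as did the groups of day 5. The day 4 arrays lay within 1 SD of the day 5 dox mean.

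Synthesis was set against breakdown as the log2 level of Aldh1a2 minus that of Cyp26a1 on the same array. This was taken relative to the mean of the knockdown controls, so that only its change between arrays is read. In the knockdown line it was 0.37, -0.74 and 0.38 without dox and -0.32, -0.45 and 0.30 with dox. On day 4 of the overexpression line it was -1.38 without and -1.35 with dox. On day 5 it was -1.01 without and -0.90 with dox in replicate 1, and 0.16 without and 0.43 with dox in replicate 2. The day 4 arrays of that line were thus lowest, and the 2 replicates of day 5 lay apart. On day 5 of the overexpression line the difference lay 1.03 further towards synthesis than on day 4. On day 4 without dox it was 1.43 higher in the knockdown line. The residual SD of this difference was 0.62. Both genes were lower in the knockdown line on day 4, with Aldh1a2 at -0.92 and Cyp26a1 at -2.35, so the 1.43 is not a higher Aldh1a2. Aldh1a2 was also near the dim end in that line, including the controls that set the reference.

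The mean dox minus control shift was -0.16 in the knockdown line and 0.14 in the overexpression line. Leaving out 1 array at a time gave -0.53 (without control replicate 2) to 0.03 (without control replicate 3) in the former and -0.26 (without day 5 dox replicate 2) to 0.50 (without day 5 dox replicate 1) in the latter, so neither sign held throughout. By equal number it was -0.69, 0.30 and -0.08 in the knockdown line, and 0.11, 0.27 and 0.03 in replicates 1, 2 and 3 of the overexpression line. The gap between replicates 2 and 1 on day 5, averaged over dox, was 1.25. It was made of a higher Aldh1a2 (by 0.62) and a Cyp26a1 at -0.63 in replicate 2. The same gap in the knockdown line had the other sign, -0.62. Markers of several cell types differed between the same arrays of day 5. Primitive streak sums were 9758 and 9672 in replicate 1 against 5593 and 5537 in replicate 2, and epiblast sums 7330 and 6619 against 4063 and 3218. Lateral mesoderm and haemangioblast sums went the other way, with 3367 and 3158 in replicate 1 against 5641 and 5774 in replicate 2. Their part in the gap was not tested.

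**Figure D2:**
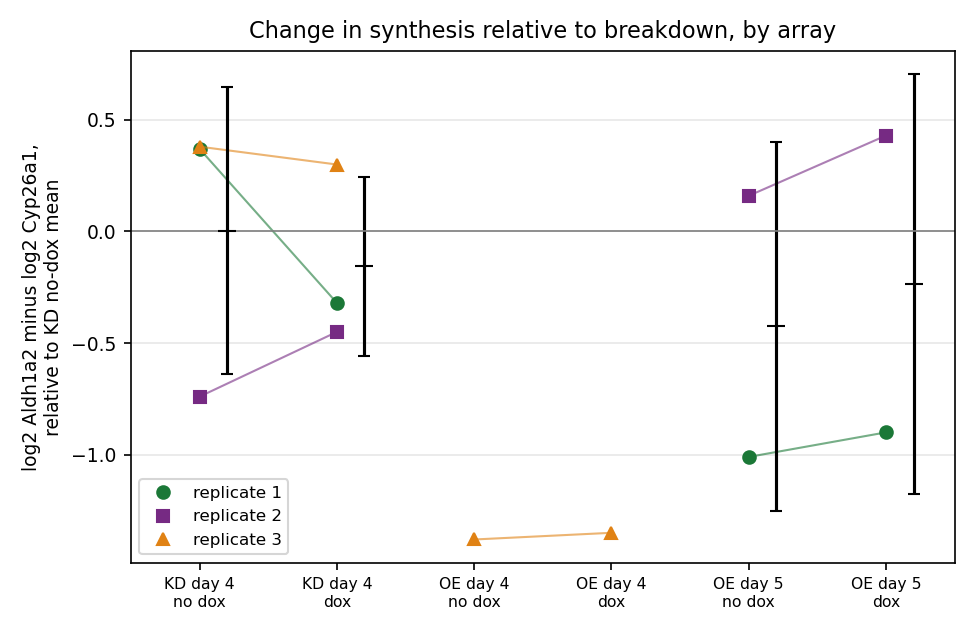
Log2 level of Aldh1a2 minus log2 level of Cyp26a1 on each of the 12 arrays, relative to the mean of the knockdown (KD) arrays without dox; OE is the overexpression line. Symbols give the replicate number, lines join arrays of equal number, and bars are the mean ± SD of groups with over 1 array. The day 4 arrays of the overexpression line are lowest (-1.38 and -1.35), and on day 5 replicate 1 (-1.01 and -0.90) lies below replicate 2 (0.16 and 0.43) with and without dox.

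The 3 receptor genes behaved differently from each other. Rarg, the receptor known from the primitive streak region, was highest in the knockdown line, at 10.12, 10.43 and 10.07 without and 9.62, 10.32 and 9.99 with dox. It stood at 9.53 and 9.63 on day 4 of the overexpression line, without and with dox, and at 8.87 and 9.43 without and 9.08 and 9.63 with dox on day 5. Its group means ran in the reverse order of those of Cyp26a1, with arrays of the lines overlapping (9.62 and 9.63). On day 4 without dox, Rarg was higher in the knockdown line by 0.71 ± 0.26 (SE, limma unadjusted p = 0.0201, limma adjusted p = 0.333). With dox the mean was 9.98 in the knockdown line against 9.63 in the overexpression line. With array weights the difference without dox was called at 0.66 (limma adjusted p = 0.0482). That setting called 1170 of 15950 genes by line, against 49 in the main fit.

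Rara, the broadly expressed receptor, differed between replicate numbers in both lines. It stood at 9.47 and 9.40 in replicate 1 of the knockdown line, without and with dox, against 10.03 and 10.11 in replicate 2 and 10.05 and 10.00 in replicate 3. On day 5 it was at 9.04 and 9.08 in replicate 1 against 9.81 and 9.98 in replicate 2. The day 4 pair of the overexpression line was at 9.58 and 9.76. None of its 5 fitted differences was called (limma adjusted p from 0.834 to 1.00).

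Rarb was nearly level. Its 12 values ran from 6.93 to 7.44 with a median of 7.15, a span of 0.51, narrower than the median span of 0.59 among tested genes. It stood at 7.17, 7.13 and 7.44 without and 6.93, 7.21 and 7.01 with dox in the knockdown line, at 7.24 and 7.05 on day 4, and between 7.08 and 7.23 on day 5. Both Rarb and Cyp26a1 hold the DR5 repeat printed above. Between the lines on day 4 Rarb differed by 0.09 ± 0.14 (SE; limma adjusted p = 0.845), while Cyp26a1 differed by -2.35. Rarb was dim, with a mean of 7.15 over all arrays (percentile 35.9) against the filter value of 6.455. Its level values therefore do not show that Rarb was unchanged, and whether dimness hid a difference was not tested.

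**Figure D3:**
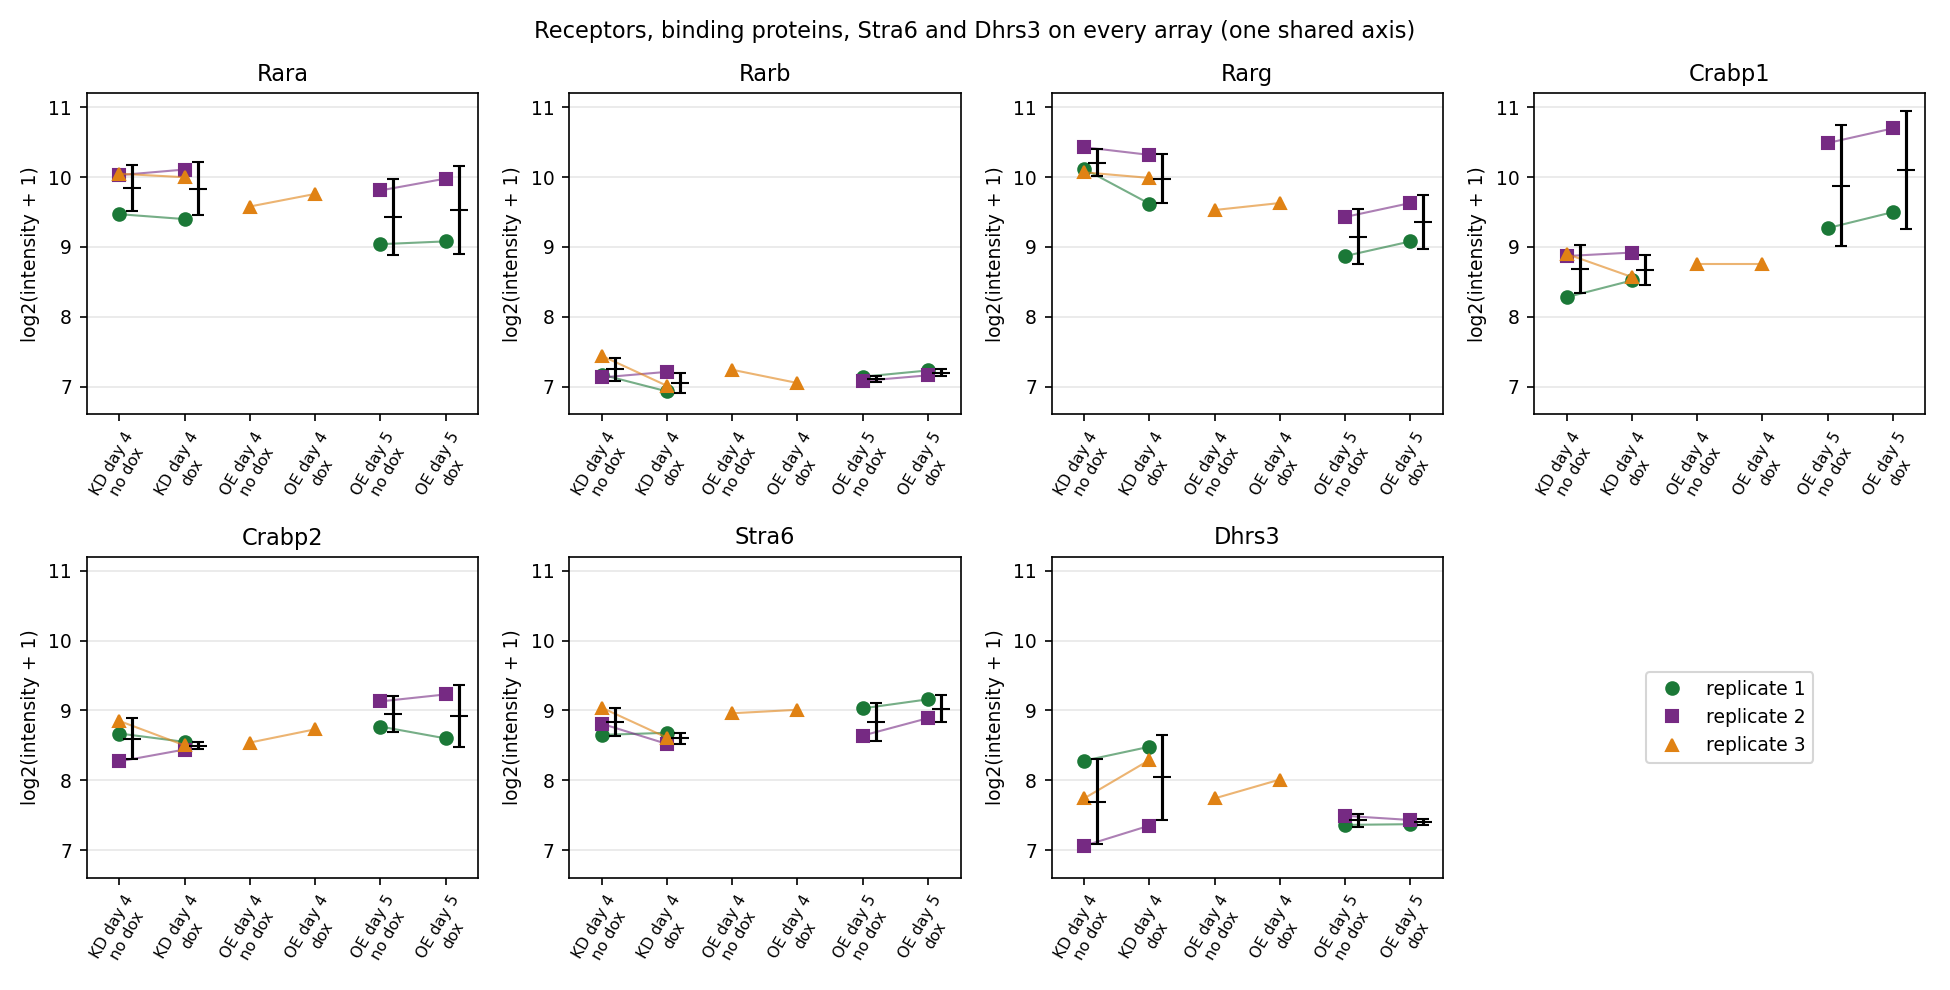
Levels of the receptors (Rara, Rarb, Rarg), binding proteins (Crabp1, Crabp2), the uptake receptor Stra6 and the reductase Dhrs3 on each of the 12 arrays, as log2(intensity + 1) on 1 shared axis. Symbols give the replicate number, lines join arrays of equal number, and bars are the mean ± SD of groups with over 1 array. Crabp1 is above 9.2 only on day 5, Rara is lowest in replicate 1 of each line, and Rarb stays between 6.93 and 7.44.

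In the knockdown line dox was given from day 0 to lower Geminin. The arrays hold no dox-treated cells without a Geminin transgene. In either line, dox itself and the change in Geminin therefore cannot be told apart. Cyp26a1 was higher with dox by 0.56 ± 0.31 (SE), Aldh1a2 by 0.40 ± 0.20 and Dhrs3 by 0.35 ± 0.32. Leaving out 1 array at a time gave 0.29 (without control replicate 3) to 0.90 (without control replicate 2) for Cyp26a1, 0.31 to 0.54 for Aldh1a2, and 0.031 (without control replicate 2) to 0.69 (without dox replicate 2) for Dhrs3. The other 6 genes were lower, from -0.01 ± 0.29 for Rara to -0.23 ± 0.14 for Stra6; Rara and Crabp1 (-0.02 ± 0.35) had the opposite sign under median centring. By equal number Aldh1a2 and Dhrs3 were higher with dox in 3 of 3 replicates and Cyp26a1 in 2 of 3. Limma called 0 of the 9 genes (lowest adjusted p = 0.965) and 1 of all genes (0.00627%). At an unadjusted p under 0.05 there were 0 of the 9 and 3.76% of all. The 3 arrays of each group overlapped for all 9 genes, whereas 8.22% of tested genes had groups that did not overlap. Exact two-sided permutation tests over the arrays of this line gave p from 0.2 to 1 for the 9 genes, and 0.1 is the smallest possible. Primitive streak markers were higher with dox in 6 of 6 cases (median 0.75), with 0 called by limma and 1 at an unadjusted p under 0.05, and primitive and visceral endoderm markers were lower in 11 of 12, with 0 called and 0 at an unadjusted p under 0.05. Their part was not tested.

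In the overexpression line, where Geminin is raised from day 3, the signs of both enzymes were the other way. Cyp26a1 was at -0.31 ± 0.31 (SE) and Aldh1a2 at -0.17 ± 0.20, each lower with dox in 3 of 3 replicates by equal number. Without day 5 dox replicate 1 the Aldh1a2 value turned to 0.023. Rarg (0.17 ± 0.21), Stra6 (0.14 ± 0.14) and Rara (0.13 ± 0.29) were higher in 3 of 3. Limma called 0 of the 9 genes and 1 of all genes (0.00627%), with 0 of the 9 and 0.934% of all at an unadjusted p under 0.05. Exact two-sided permutation tests within day gave p from 0.5 to 1, and 0.17 is the smallest possible. Pluripotency markers were higher with dox in 8 of 8 cases (median 0.16), where 56.7% of all genes were higher. Lateral mesoderm and haemangioblast markers were higher in 1 of 7, primitive streak markers in 4 of 6 and endoderm markers in 5 of 12. In each of these lists 0 were called by limma and 0 had an unadjusted p under 0.05. Their part was not tested.

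Whether dox acted differently in the lines was tested as the knockdown minus the overexpression effect. It was 0.87 ± 0.44 (SE) for Cyp26a1, 0.57 ± 0.29 for Aldh1a2, -0.40 ± 0.30 for Rarg and -0.37 ± 0.19 for Stra6. Limma called 0 of the 9 genes and 0 of all genes (0%), with 0 of the 9 and 2.13% of all at an unadjusted p under 0.05. The start of dox and the days of collection also differ between the lines.

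**Figure D4:**
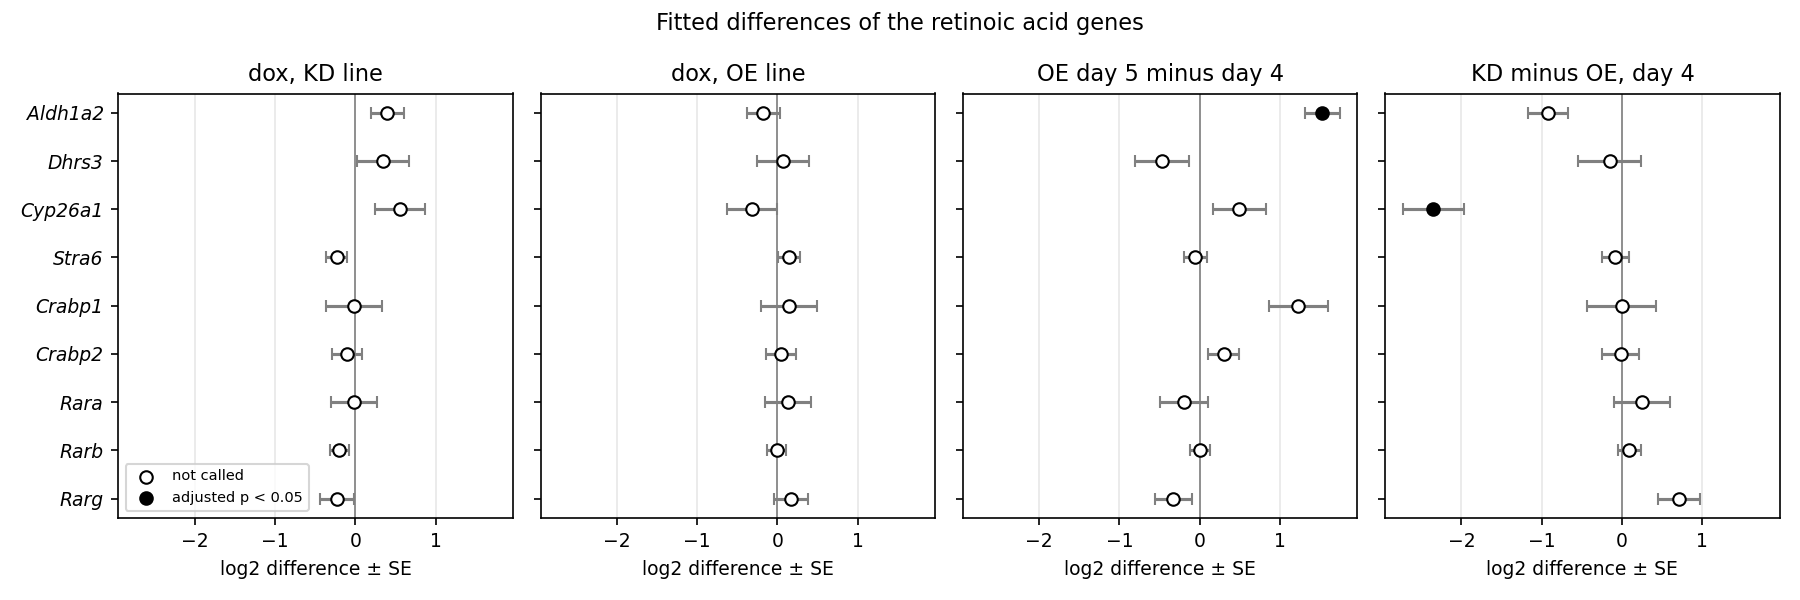
Fitted log2 differences ± SE of the 9 genes in 4 comparisons: dox in the knockdown (KD) line, dox in the overexpression (OE) line, day 5 minus day 4 of the overexpression line, and knockdown minus overexpression on day 4. Filled points passed a limma adjusted p of 0.05 over all 15950 genes. The comparison of the lines is for fitted levels without dox. The 2 filled points are Aldh1a2 by day (1.52) and Cyp26a1 by line (-2.35).

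By day and by line the group as a whole was mixed. Between day 4 and day 5, 2 of the 9 genes (Aldh1a2 and Crabp1) had an unadjusted p under 0.05, against 14.2% of all genes, with 5 of the 9 higher. Between the lines on day 4 there were 3 of the 9 (Aldh1a2, Cyp26a1 and Rarg), against 11.6%. The replicate number went with larger differences than dox did on day 5: for 8 of the 9 genes the gap between replicates 2 and 1 exceeded both dox differences, as it did for 56.5% of all tested genes. The exception was Rarb. In the knockdown line the span of the replicate means exceeded all 3 dox differences for 4 of the 9 genes, and for 40.8% of all.

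Of 52 other genes of the pathway, 49 had a probe set of their own and 45 were tested. They cover uptake and storage, oxidation and reduction of retinoids, the other Cyp26 enzymes, Rxr partners and coregulators. With dox in the knockdown line 25 were higher and 20 lower (median 0.04, against 0.01 over all genes), 0 were called by limma and 3 (6.67%) had an unadjusted p under 0.05, against 3.76% of all genes. The extremes were Rxrg, a partner of the receptors, at 0.52 ± 0.13 (SE), Aldh8a1, an aldehyde dehydrogenase, at 0.42 ± 0.15, Lrat, which stores retinol as esters, at -0.79 ± 0.45, and Ttr, a plasma carrier of retinol-binding protein and thyroid hormone, at -0.31 ± 0.19. With dox in the overexpression line 28 were higher and 17 lower (median 0.02, against 0.01), with 0 called and 1 (2.22%) at an unadjusted p under 0.05, against 0.934%. Lrat stood at 0.57 ± 0.45 there, and Cyp26c1, another breakdown enzyme, at -0.25 ± 0.10 (SE). The dox effect differed between the lines by -1.36 ± 0.63 for Lrat and 0.61 ± 0.22 for Aldh8a1 (SE), with 0 of the 45 called and 1 (2.22%) at an unadjusted p under 0.05, against 2.13%.

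Rxrg was the only 1 of the 45 pathway genes called by day, where 0.558% of all genes were called. It was lower on day 5 than on day 4 of the overexpression line, by 0.79 ± 0.14 (SE) on the log2 scale (limma adjusted p = 0.0433). The call was lost without any 1 of the arrays other than control replicates 2 and 3 of the knockdown line (adjusted p from 0.0509 to 0.728, differences from -0.88 to -0.72). It was also lost with no filter (0.064), with no normalization (0.0769), with median centring (0.0733) and with that line alone (0.0947). Of the 45 genes 26 were higher and 19 lower on day 5, with 3 (6.67%) at an unadjusted p under 0.05, against 14.2% of all genes. On day 4 Rxrg was lower in the knockdown line too, at -0.73 ± 0.16 (SE; limma adjusted p = 0.114), and Ncoa3, a receptor coactivator, was highest at 0.75 ± 0.36. In that comparison 24 were higher and 21 lower, with 0 called and 3 (6.67%) at an unadjusted p under 0.05, against 11.6% of all genes.

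Known targets of retinoic acid were followed in a second list of 32 genes, of which 28 had a probe set of their own and 27 were tested. Limma called 0 of them in each of the 5 comparisons, with 2, 1, 0, 4 and 5 at an unadjusted p under 0.05 for dox in the knockdown line, dox in the overexpression line, their difference, day and line. These are 7.41%, 3.7%, 0%, 14.8% and 18.5% of the 27, against 3.76%, 0.934%, 2.13%, 14.2% and 11.6% of all genes. With dox in the knockdown line 18 were lower and 9 higher, and the median was -0.10 against 0.01 over all genes. Stra8, which retinoic acid turns on in germ cells entering meiosis, was at -1.01 ± 0.42 (SE). Fgf8, which retinoic acid represses at the end of the body axis, was highest at 0.67 ± 0.43. It is also among the primitive streak markers counted above. Stra8 stood at 7.77, 8.49 and 7.03 without and 6.20, 7.02 and 7.03 with dox in that line. The lowest control and the highest dox array both stood at 7.03. Dox replicate 1 (6.20) lay below the filter value of 6.455. In the overexpression line 16 were higher and 11 lower with dox (median 0.01, against 0.01), with Cdx1 at 0.29 ± 0.15 and Zfp703 at -0.33 ± 0.11 (SE). The dox effect differed between the lines by -1.10 ± 0.59 for Stra8 (SE), with 20 of 27 lower in the knockdown line. Stra8 was dim in the overexpression line, at 5.68 to 6.83 over its arrays.

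From day 4 to day 5, 19 targets were higher and 8 lower (median 0.10, against 0.00 over all genes). Pdgfra, also a mesoderm marker, was at 0.70 ± 0.46 and Nr2f2, an orphan nuclear receptor, at 0.62 ± 0.28 (SE). On day 4 Stra8 was higher in the knockdown line by 1.59 ± 0.51, whereas Fgf8 (-1.37 ± 0.52) and Hoxb1 (-0.88 ± 0.19), the anterior Hox gene with a classical retinoic acid response element, were lower (limma adjusted p from 0.107 to 0.348). Of the 27 targets 16 were higher and 11 lower in that comparison. Stra8 was dim on day 4 of the overexpression line. Its levels there, 6.05 without and 6.37 with dox, lay below the filter value of 6.455.

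The genes whose levels were most like those of Aldh1a2 over the 12 arrays were Hes1, a Notch target (Pearson r = 0.989), the growth factor gene Pgf (0.987), Tmem176a (0.986), Bambi, which restrains BMP signalling (0.985), and Vgll4, a cofactor of Tead proteins (0.983). Those most like Cyp26a1 were Sppl2a, an intramembrane protease (0.975), Amot, an angiomotin (0.973), Pwwp3b (0.966), Fgf10, a growth factor gene (0.959), and Ndfip2, an adaptor of ubiquitin ligases (0.958). Predicted gene models, Riken and other numbered clones, and olfactory, vomeronasal and small RNA genes were left out before ranking. The values of r describe likeness over arrays that share line, day and replicate, and carry no p. The mean level of Amot was 8.92 in the knockdown controls, against 10.39 and 10.96 in the controls of day 4 and day 5 of the overexpression line. Tmem176a stood at 6.48, 7.43 and 8.62 in those 3 groups, where Aldh1a2 stood at 6.30, 7.22 and 8.74.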

How the data were processed

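Per the labels' protocols, 1 µg of RNA per sample was biotin-labelled as sense-strand target for Affymetrix arrays. The authors deposited 1 intensity per probe set and array on a linear scale. How they were summarised, background-corrected and normalized is not given in the sources used here. The mean intensity was 677.3 on the lowest and 696.6 on the highest array. Precision is limited by how many arrays there are.

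The values were taken as log2(intensity + 1). Array medians spanned 0.324 on this scale, above a limit of 0.1, so quantile normalization over 35512 probe sets was used. Gene names come from the platform annotation: 21789 probe sets name 1 gene, 1621 several and 12102 none. The brightest probe set stood for each of 19938 genes. All 9 members matched the RefSeq gene table (GRCm38.p6) by gene number. Genes with a mean below the 20th percentile (log2 value 6.455) were not tested. A limma 3.58.1 model (R 4.3.3; lmFit, eBayes) of all 12 arrays took each line and day as a baseline and fitted 1 dox effect per line, with no replicate block (7 residual and 3.5 prior degrees of freedom). The comparison of the lines sets their day 4 baselines, which are levels without dox, against each other. Benjamini-Hochberg adjusted p-values over 15950 genes were called under 0.05. The steps were tested on simulated data.

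Members, pathway and target lists and markers were chosen with earlier results of these data known. Named beside the members were Gmnn, list genes called in a comparison or otherwise the largest differences, and the 5 ranked genes most like Aldh1a2 and Cyp26a1. Stra8, Foxc1, Evx1, Mesp1, Msgn1, Tbx6 and Kdr come from these lists. Of the genes listed, those without a probe set of their own were not analysed here. Alternatives were a replicate block, other normalizations, pseudocount 16, no or a 40th percentile filter, the mean over probe sets, single lines, day 5 alone, array weights and leaving out each array. No arrays held identical values.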

Additional observations from a re-analysis of the deposited data

Results flagged for a closer look

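In Aldh1a2 and Rarg the arrays of equal number moved one way in all 3 replicates of the knockdown line and the other way in all 3 of the overexpression line. How many of all tested genes do the same was not counted, so the pattern is not shown to be special to these genes. The main model does not pair equal numbers, and in the overexpression line replicate 3 is day 4 while replicates 1 and 2 are day 5. Aldh1a2 with dox minus without was 0.36, 0.18 and 0.66 in the knockdown line and -0.25, -0.09 and -0.18 in the overexpression line (replicates 1, 2 and 3). The fitted effect in the overexpression line turned from -0.17 to 0.023 without day 5 dox replicate 1. The difference between the lines was 0.57 ± 0.29 (SE) and did not pass (limma adjusted p = 1.00). Rarg was at -0.50, -0.12 and -0.07 against 0.21, 0.20 and 0.10, a difference of -0.40 ± 0.30 (SE; limma adjusted p = 1.00).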

How the results depend on the processing

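Aldh1a2 by day and Cyp26a1 by line kept their direction under every alternative run. Leaving out each array in turn gave 1.37 to 1.67 and -2.69 to -2.08, and the calls were lost as described above. With the 40th percentile filter Aldh1a2 and Rarb were too dim to be tested. The call of Aldh1a2 was lost with the overexpression line alone (1.52, adjusted p = 0.0846), and that of Cyp26a1 with no filter (-2.35, adjusted p = 0.0579). Counts of called genes moved more. With no normalization the line count was 30, and with median centring the day count was 33. With no filter the day and line counts were 27 and 29. Each line alone gave 0 for its dox effect, as did day 5 alone for the overexpression line, whose arrays alone gave 19 by day. Array weights gave 201 for dox in the overexpression line, 2567 by day and 1170 by line, and called Aldh1a2 by line (-0.85, adjusted p = 0.0162) and Gmnn in the overexpression line (0.71, adjusted p = 0.00929). Leaving out each array gave 0 to 1 for dox in the overexpression line, 0 to 148 by day and 0 to 80 by line; without either day 4 array of the overexpression line both of the latter were 0. The cause of these shifts was not tested. A day 4 arm of 1 array is assumed to vary like the other groups.

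The signs that turned belonged to differences that were not called. With no normalization these were Rarb for dox in the overexpression line (0.020) and by day (-0.029), and Crabp1 (0.030) and Crabp2 (0.012) by line. With median centring they were Rara (0.089) and Crabp1 (0.042) for dox in the knockdown line, and Rarb (-0.0011) and Stra6 (0.0090) by day. With day 5 alone they were Rarb (0.080), Crabp2 (-0.038) and Dhrs3 (-0.031) for dox in the overexpression line. With array weights they were Rara (0.098) and Crabp1 (0.078) for dox in the knockdown line, Crabp1 for the difference between the dox effects (0.017), Rarb by day (-0.013), and Crabp2 (0.075) and Dhrs3 (0.11) by line. The level of Aldh1a2 minus that of Cyp26a1 also turned sign for dox in each line (-0.53 to 0.03 and -0.26 to 0.50). For dox in the knockdown line the sign turned without at least 1 array for Rara from -0.20 to 0.20, Crabp1 from -0.22 to 0.092 and Crabp2 from -0.26 to 0.0243. For dox in the overexpression line the sign turned without at least 1 array for Aldh1a2 from -0.37 to 0.0234, Rara from -0.12 to 0.40, Rarb from -0.0554 to 0.0799, Crabp1 from -0.23 to 0.47, Crabp2 from -0.11 to 0.24 and Dhrs3 from -0.0312 to 0.13. For the difference between the dox effects the sign turned without at least 1 array for Rara from -0.41 to 0.10, Crabp1 from -0.49 to 0.21, Crabp2 from -0.34 to 0.0134 and Dhrs3 from -0.0382 to 0.62. Between the days the sign turned without at least 1 array for Rara from -0.38 to 0.0022, Rarb from -0.13 to 0.14 and Stra6 from -0.13 to 0.0395. Between the lines on day 4 the sign turned without at least 1 array for Rarb from -0.0048 to 0.27, Crabp1 from -0.19 to 0.20, Crabp2 from -0.17 to 0.14, Stra6 from -0.19 to 0.0108 and Dhrs3 from -0.45 to 0.16.

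In the knockdown line arrays of equal number deviated together with r = 0.602, 0.438 and 0.051 (replicates 1, 2 and 3). On day 5 of the overexpression line r was 0.785. Arrays of equal number thus shared deviations, except in replicate 3 of the knockdown line. The main model has no replicate block, so its dox SEs and p-values also hold the differences between replicate numbers. A replicate block within each line left the counts of called genes at 1, 1 and 0 for dox in the knockdown line, in the overexpression line and their difference, and called none of the 9 genes. The lowest adjusted p was 0.281, for Aldh1a2 in the knockdown line (0.40). Genes at an unadjusted p under 0.05 numbered 1941, 572 and 1384 with the block, against 599, 149 and 340 without it.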

Other observations

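Dhrs3 and the markers of primitive and visceral endoderm took opposite positions on the arrays of the knockdown line, a pattern chosen after the values were seen. In replicate 2, where Dhrs3 was lowest (7.06 without and 7.35 with dox), the 13 endoderm markers summed to 12798 and 10883. In replicate 1, where Dhrs3 was highest (8.28 and 8.48), they summed to 4329 and 3732, and in replicate 3 (7.74 and 8.29) to 5363 and 4044. Gata4, an endoderm transcription factor, stood at 10.98 and 10.56 in replicate 2 against 9.21 and 8.69 in replicate 1. In the overexpression line Dhrs3 was at 7.74 and 8.01 on day 4 with endoderm sums of 4193 and 3859, and between 7.36 and 7.49 on day 5 with sums of 6064 to 7089.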
